A study of Mus musculus with 24 samples.

Results

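Autophagy and mitophagy genes were examined as a set of 36 in microglia, the macrophages that reside in brain tissue. The members were listed by name and matched to the table's Entrez gene identifiers through mouse gene symbols, synonyms allowed. All 36 were found with values, among 15878 genes with values in the whole table. Every one of them also passed the filter on low counts that left 10219 genes to be tested.

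RNA came from microglia sorted from the brains of wild-type mice by fluorescence-activated cell sorting, and complementary DNA was amplified by Smart-seq2, a method for small amounts of RNA. The 24 libraries form 4 groups of 6, all labelled as 28 days. WD-Exos and ND-Exos mice had the BCAS operation and exosomes of the kind each name gives, 100 µg by tail vein once every 3 days; BCAS mice had the operation and saline; Sham mice had saline and no BCAS operation. Bilateral carotid artery stenosis, usually shortened to BCAS, narrows both carotid arteries. The series title names foam cells, macrophages filled with lipid, as the source of the exosomes. The labels do not spell out WD or ND. Nor do they state that each library is a separate mouse, and every p-value here therefore measures the spread between these samples, part of which may be technical.

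Library totals were 24278000 to 28892000 estimated counts, with 8515 to 10794 genes detected per library. The 9 microglial markers, Cx3cr1, Tmem119 and P2ry12 among them, summed to 30823 to 57832 CPM (each count as a share of its library's total, after TMM scaling, on a fixed common total). The 8 oligodendrocyte markers summed to 81.1 to 7594 CPM. One library in each group stood apart in them: WD-Exos replicate 6 (5225), ND-Exos replicate 3 (4293), BCAS replicate 1 (1232) and Sham replicate 4 (7594). A further 15 genes of the immediate early and heat shock kind, known to respond quickly to stimulation or handling of cells, summed to 637 to 22715 CPM. They were highest in WD-Exos replicates 1, 2 and 3 (13035, 22715 and 12407) and BCAS replicates 1 and 2 (9852 and 18448). In bulk RNA of this kind, fewer cells of a type and less RNA per cell cannot be told apart.

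Autophagy encloses cytoplasm in a double membrane, the autophagosome, and delivers it to lysosomes. A kinase complex around ULK1 starts it, a lipid kinase complex built on VPS34 and beclin 1 marks the membrane with the lipid PI3P, and a pair of ubiquitin-like conjugation systems attaches proteins of the ATG8 family to the membrane. Cargo receptors tie selected cargo to ATG8 proteins, and mitophagy is the selective removal of mitochondria. In microglia the pathway is known for its part in handling engulfed material, lipids and inflammatory signals.

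The members' summed level overlapped between all groups. The 36 summed to 2467, 2794 and 3047 CPM in WD-Exos (lowest, median and highest library, as for every group of 3 CPM values that follows), 2623, 2802 and 2920 in ND-Exos, 2584, 2772 and 3054 in BCAS, and 2644, 2907 and 3085 in Sham. The medians lay between 2772 and 2907 CPM. A sum is led by the members of highest level. Members with a count numbered 31, 32.5 and 33 in BCAS and 34, 34 and 35 in Sham (lowest, median and highest library), without overlap. They numbered 31, 33.5 and 35 in WD-Exos and 29, 33 and 35 in ND-Exos. Their mean log2(CPM + 1) was 4.38, 4.61 and 4.77 in BCAS and 4.44, 5 and 5.25 in Sham. It was 4.38, 4.91 and 5.45 in WD-Exos and 4.43, 4.59 and 4.97 in ND-Exos, which had the lowest median. Genes with a count over the whole table, given below, were also fewest in BCAS. There the ranges of BCAS (8515 to 9888) and Sham (9152 to 10258) overlapped. These measures were not tested. No member passed an adjusted p of 0.05 in any pairwise comparison by edgeR's quasi-likelihood test with Benjamini-Hochberg adjustment over all genes tested.

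For BCAS against Sham, 0 of 36 members passed by edgeR, against 0% of all genes. Without adjustment 1 member (2.78%) had p under 0.05 by edgeR, against 6.04% of all genes. By DESeq2 it was 1 (2.78%, against 9.44%) and by limma's voom 2 (5.56%, against 7.71%). In BCAS 14 members were higher and 22 lower; their median log2 fold change was -0.09, where the median over all genes tested was -0.00. For ND-Exos against BCAS, 0 of 36 passed by edgeR, against 0.0196% of all genes. Without adjustment 3 members (8.33%) were under 0.05 by edgeR, against 4.47% of all genes. By DESeq2 it was 4 (11.1%, against 7.93%) and by voom 2 (5.56%, against 5.73%). The members split into 16 higher and 20 lower in ND-Exos, with a median of -0.04, against 0.01 over all genes.

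For WD-Exos against BCAS, 0 of 36 passed by edgeR, against 0% of all genes. Without adjustment 3 members (8.33%) were under 0.05 by edgeR, against 3.71% of all genes. By DESeq2 it was 3 (8.33%, against 6.54%) and by voom 6 (16.7%, against 6.35%). The split was 18 higher and 18 lower in WD-Exos, with a median of 0.03, against -0.02 over all genes. For WD-Exos against ND-Exos, 0 of 36 passed by edgeR, against 0.0196% of all genes. Without adjustment 4 members (11.1%) were under 0.05 by edgeR, against 5.33% of all genes. By DESeq2 it was 5 (13.9%, against 8.55%) and by voom 9 (25%, against 9.53%). Of the members 22 were higher and 14 lower in WD-Exos, with a median of 0.13, against -0.01 over all genes. A single edgeR test of any difference among the 4 groups called 0 members, against 0.0294% of all genes. Without adjustment 3 members (8.33%) were under 0.05 in it by edgeR, against 6.33% of all genes. By DESeq2 it was 3 (8.33%, against 6.55%) and by voom 5 (13.9%, against 8.85%). Shares of members and of all genes were not tested against each other.

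The other tools give a different background. After adjustment DESeq2 called 1 member, Wipi1, of 36 for BCAS against Sham, where it called 4.52% of all genes with an adjusted p. It called 1, again Wipi1, for ND-Exos against BCAS (3.67% of all genes) and 1, Wipi1, for WD-Exos against BCAS (3.04%), comparisons that share the BCAS libraries. For WD-Exos against ND-Exos it called 0 members (3.46%). In its test of any difference, 14 members had an adjusted p and 0 were called (5.34%). Of 36 members, 1 is 2.78%, below the share of all genes in each of the 3 comparisons. Voom called 0 members after adjustment for BCAS against Sham (0.0881% of all genes), ND-Exos against BCAS (0.00979%), WD-Exos against BCAS (0.00979%), WD-Exos against ND-Exos (0.0391%) and any difference (0.254%).

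**Figure D1:**
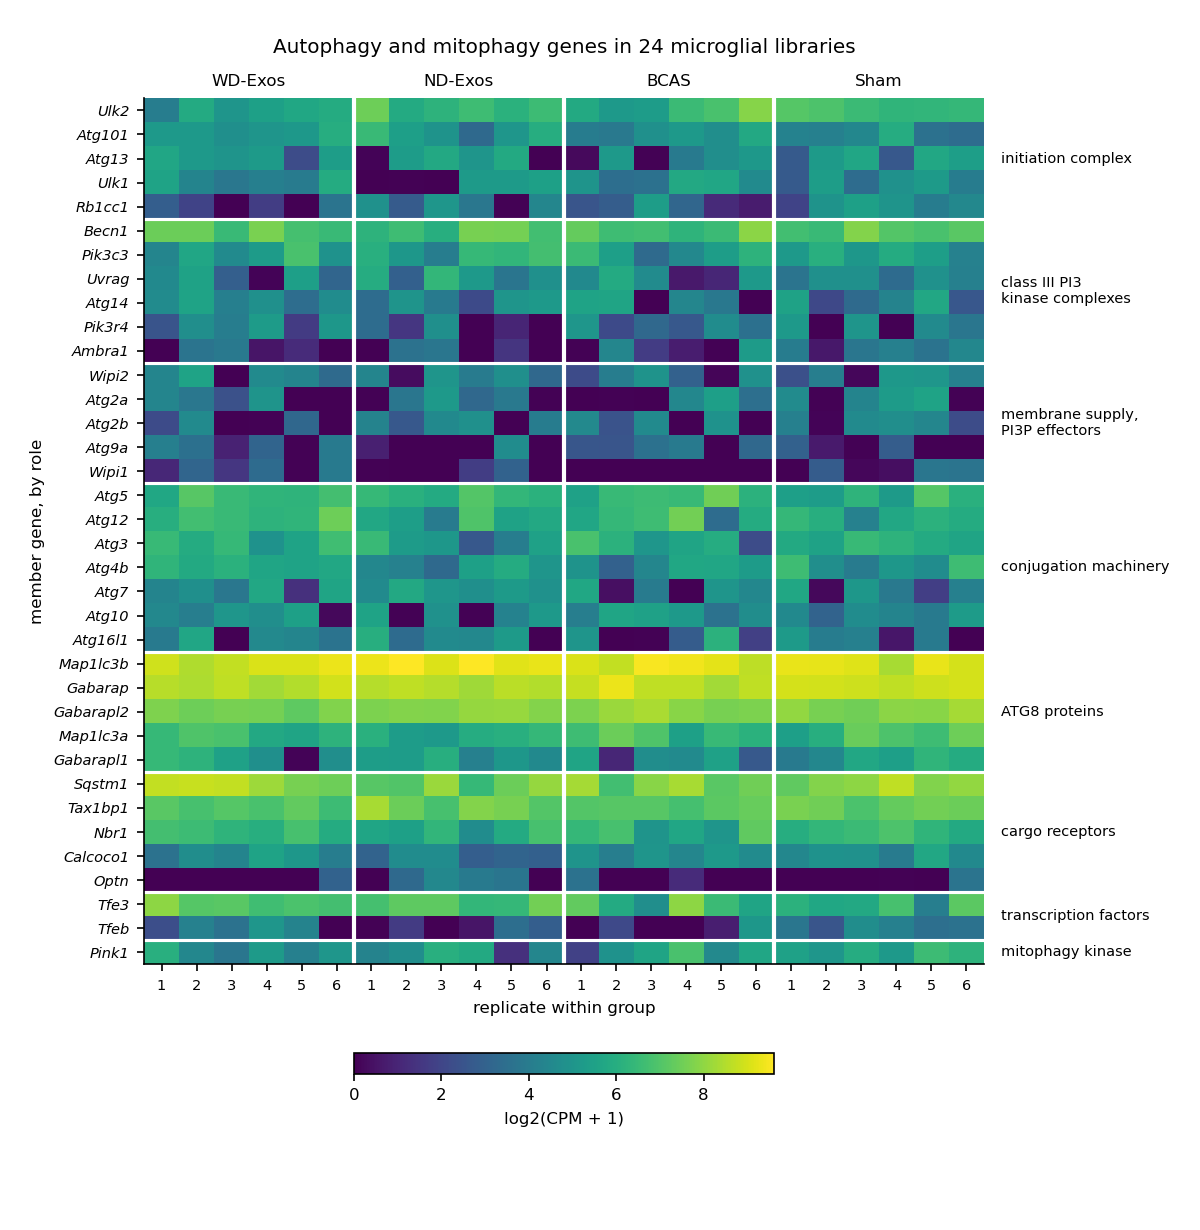
Level of each of the 36 members (rows, grouped by role) in each of the 24 libraries (columns, grouped as WD-Exos, ND-Exos, BCAS and Sham), with colour giving log2(CPM + 1). Map1lc3b, Gabarap, Gabarapl2 and Sqstm1 are bright in every library, and the row of Wipi1 is at 0 across all 6 BCAS libraries.

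Levels spanned a wide range. Per kilobase of the longest principal transcript, in GENCODE vM21 gene models, Gabarap averaged 309 ± 57.2 CPM per kb over the 24 libraries (SD) and Map1lc3b 222 ± 48.0. Gabarapl2 at 137 ± 25.9 and Sqstm1 at 120 ± 52.0 CPM per kb did not differ beyond their spread. They were followed by Map1lc3a (79.7 ± 38.6), Tax1bp1 (47.9 ± 15.0), Atg5 (35.4 ± 15.0), Tfe3 (34.3 ± 18.6) and Becn1 (30.1 ± 12), neighbours that overlap within their SDs. Atg9a (1.35 ± 1.66), Optn (1.42 ± 2.39), Wipi1 (1.53 ± 2.33) and Ambra1 (1.54 ± 1.87) were lowest. A count was present in all 24 libraries for 21 members, while 15 were at 0 in at least 1 library, as were 52% of all genes tested. The members with a mean under 30 CPM, 18 in number, held all 15 that were at 0 somewhere.

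Of the initiation complex, Ulk2, one of its kinase subunits, had 15.7, 47.2 and 59.9 CPM in WD-Exos, 57.4, 84.9 and 179 in ND-Exos, 34.7, 74.5 and 235 in BCAS, and 77.8, 87.7 and 133 in Sham. The WD-Exos libraries were the low ones: 4 of the 6 lay below the lowest ND-Exos library, and the WD-Exos range still overlapped the ND-Exos and BCAS ranges. All 6 lay below the lowest Sham library, a pair of groups not among the comparisons tested, in which 1 of 36 members and 0.744% of all genes were apart in that direction. For this gene the log2 fold change was -1.15 for WD-Exos against ND-Exos (SE 0.40, 95% interval -1.98 to -0.32, unadjusted p = 0.00821, edgeR adjusted p = 0.548). It was -1.14 for WD-Exos against BCAS (SE 0.40, interval -1.96 to -0.31, unadjusted p = 0.00873, edgeR adjusted p = 0.816). The BCAS value leans on replicate 6, the highest library at 235 CPM, without which the log2 fold change against BCAS was -0.64. For BCAS against Sham it was -0.04 (interval -0.86 to 0.77) and for ND-Exos against BCAS 0.01 (interval -0.80 to 0.83).

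Atg101, a subunit that stabilises ATG13 in the same complex, had 26.4, 34.6 and 62.5 CPM in WD-Exos, 8.66, 37.4 and 89.2 in ND-Exos, 13.8, 26.6 and 55.1 in BCAS, and 9.64, 17.6 and 60.4 in Sham. All groups overlapped. The highest WD-Exos and Sham libraries were replicates 6 and 4, which were also the highest of their groups in oligodendrocyte markers. The richest in those markers in the other two groups, ND-Exos replicate 3 and BCAS replicate 1, had Atg101 at 29.7 and 15.5 CPM, below their groups' medians. The scaffold gene Rb1cc1 had 0, 2.6 and 12 CPM in WD-Exos, 0.0362, 16.5 and 32.4 in ND-Exos, 0.641, 5.47 and 39.5 in BCAS, and 2.80, 25.3 and 43.0 in Sham. Its 95% interval for WD-Exos against ND-Exos ran from -4.90 to 0.75 on the log2 scale and thus spans 0. Ulk1, the better known kinase, and Atg13, its adaptor, ranged from 0 to 59.1 and from 0 to 56.7 CPM over all libraries, with overlapping groups and edgeR adjusted p = 1 in every pairwise comparison.

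The class III PI3 kinase complexes make PI3P. Becn1, which encodes the beclin 1 subunit, had 90.2, 140 and 202 CPM in WD-Exos, 64.9, 101 and 197 in ND-Exos, 74.6, 100 and 245 in BCAS, and 90.6, 124 and 229 in Sham. The 4 ranges were nearly superimposed. Fitted log2 fold changes were -0.06 for BCAS against Sham (95% interval -0.73 to 0.61), -0.09 for ND-Exos against BCAS (-0.76 to 0.58), 0.12 for WD-Exos against BCAS (-0.55 to 0.78) and 0.21 for WD-Exos against ND-Exos (-0.46 to 0.87). None of these 4 intervals reached beyond 0.87 on the log2 scale.

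Pik3c3, which encodes the catalytic subunit VPS34, had 19.5, 33.1 and 114 CPM in WD-Exos, 15.8, 72.3 and 106 in ND-Exos, 8.88, 40.9 and 92 in BCAS, and 17.6, 38.6 and 66.6 in Sham. Groups overlapped in each comparison. Its deposited values were not whole numbers in any of the 24 libraries, and those of Becn1 were not whole in 5. The regulatory subunit gene Pik3r4 ranged from 0 to 37.7 CPM and was at 0 in 4 libraries, 2 of them in ND-Exos and 2 in Sham. Atg14 and Uvrag, which direct the kinase to early and late steps, reached 52.7 and 80.7 CPM. Ambra1, a beclin 1 regulator, reached 37.4 CPM and was at 0 in 5 libraries. None of these 4 genes had an edgeR adjusted p below 1 in any pairwise comparison.

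Membrane for the growing autophagosome comes through ATG9A vesicles and the lipid transfer proteins ATG2A and ATG2B, and WIPI proteins bind PI3P. Wipi1 (Entrez 52639) averaged 3.13 CPM over the 24 libraries and was at 0 in 10 of them. It had 0.037, 4.81 and 14.5 CPM in WD-Exos, 0, 0.0179 and 7.10 in ND-Exos, 0 in all 6 BCAS libraries, and 0, 3.12 and 12.7 in Sham. A count was present in 6 of 6 WD-Exos libraries, 3 of 6 ND-Exos, 0 of 6 BCAS and 5 of 6 Sham. WD-Exos lay above BCAS without overlap, as 0.117% of all genes did. It was the only such case among the members in the 4 comparisons tested. In the lower direction 0 members were apart for WD-Exos against BCAS (0.0685% of all genes) and 0 for ND-Exos against BCAS (0.0881%). No groups were apart in either direction for BCAS against Sham (0.372% of all genes) or WD-Exos against ND-Exos (0.519%). This separation rests on 1 count in WD-Exos replicate 5.

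A count of 0 allows up to 3 counts in a library, or 0.118 CPM on average in BCAS, a limit that covers counting error only, since amplified reads are not independent molecules. The ND-Exos median and WD-Exos replicate 5 lie below that floor. Against the floor, mean Wipi1 was at least 49.0-fold higher in WD-Exos (5.76 ± 5.71 CPM, SD, n = 6) and at least 13.4-fold higher in ND-Exos (1.58 ± 2.86). BCAS was at least 44.2-fold lower than Sham (5.2 ± 6.03). These limits take the other group's mean as exact. They fell to 34.1-fold without WD-Exos replicate 6 and 31.4-fold without Sham replicate 5. The ND-Exos limit fell to 4.06-fold without replicate 5, the library at 7.10 CPM. The edgeR adjusted p was 0.816 for WD-Exos against BCAS, 0.577 for ND-Exos against BCAS and 0.356 for BCAS against Sham (unadjusted p = 0.00132, 0.00329 and 0.00142). DESeq2 gave adjusted p = 0.000114, 0.00489 and 0.000132 in the same order. Over all alternatives the adjusted p ranged from these values up to 1, 0.977 and 0.512. The call thus depends on the tool.

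Genes with a count were also fewest in BCAS, at 8515, 9061 and 9888, against 9152, 9966 and 10258 in Sham, with overlap. Within Sham, replicates 5 and 6, the highest in Wipi1, had the fewest genes with a count, 9263 and 9152. Of all genes tested, 16 were at 0 in all 6 libraries of WD-Exos, 42 in ND-Exos, 69 (0.675%) in BCAS and 31 in Sham. Of the 69, 8 had a count in at least 5 Sham libraries. The 7 mural cell markers summed to at most 19.9 CPM in WD-Exos, 23.6 in ND-Exos, 0.0433 in BCAS and 981 in Sham. Library by library, from replicate 1 to 6, their sum was 19.9, 0, 10.3, 0, 0 and 0.345 CPM in WD-Exos. Wipi1 was at 1.1, 7.77, 1.85, 9.28, 0.037 and 14.5 CPM in the same libraries. In ND-Exos the sum was 0.214, 0, 23.6, 0, 16.4 and 0 CPM, with Wipi1 at 0.0357, 0, 0, 2.35, 7.10 and 0 CPM. In Sham the sum was 13.1, 981, 0.333, 187, 7.48 and 0 CPM, with Wipi1 at 0, 5.96, 0.125, 0.275, 12.7 and 12.1 CPM. Whether genes detected or mural cells bear on the Wipi1 pattern was not tested.

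Wipi2, the paralogue that recruits the conjugation machinery, had 0, 19.6 and 46.4 CPM in WD-Exos, 0.238, 17.4 and 31.6 in ND-Exos, 0.0813, 11.3 and 29.4 in BCAS, and 0.125, 16.9 and 33.6 in Sham. Each group thus held libraries near 0 beside others above 29 CPM, and the groups overlapped. Atg2a had 0, 8.69 and 30.3 CPM in WD-Exos, 0.0357, 10.6 and 36.2 in ND-Exos, 0, 5.2 and 42.1 in BCAS, and 0.0357, 21.5 and 46.5 in Sham, again with full overlap. Atg2b reached 28.7 CPM and was at 0 in 5 libraries. Atg9a had a count in 2 of 6 ND-Exos libraries, against 5 of 6 in BCAS, and ranged from 0 to 24.8 CPM over all libraries.

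The conjugation machinery includes the E1-like enzyme ATG7, the E2-like enzymes ATG3 and ATG10, the conjugate of ATG12 to ATG5 with its partner ATG16L1, and the protease ATG4B. Atg5 had 51.6, 83.2 and 138 CPM in WD-Exos, 58.4, 75.5 and 131 in ND-Exos, 44.5, 88.5 and 183 in BCAS, and 36.8, 55.0 and 133 in Sham. BCAS libraries tended to the higher values, with wide overlap. In BCAS against Sham the log2 fold change was 0.53 (SE 0.34, 95% interval -0.17 to 1.24, unadjusted p = 0.13, edgeR adjusted p = 1), and without BCAS replicate 5, the library at 183 CPM, it was 0.24.

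Atg12 had 63.9, 83.2 and 181 CPM in WD-Exos, 15.1, 49.6 and 125 in ND-Exos, 9.63, 71.5 and 188 in BCAS, and 17.7, 61.7 and 82.8 in Sham. One library in each of the first 3 groups stood well above the rest. For WD-Exos against ND-Exos the log2 fold change was 0.82 (SE 0.49, interval -0.19 to 1.83, unadjusted p = 0.108, edgeR adjusted p = 1). It was 0.36 without the 3 libraries richest in oligodendrocyte markers, which include WD-Exos replicate 6 at 181 CPM, the highest of its group. That setting therefore cannot tell whether oligodendrocyte markers bear on Atg12. For BCAS against Sham the log2 fold change was 0.49 (interval -0.52 to 1.49), and 0.05 without BCAS replicate 4.

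Atg4b had 47.2, 55.1 and 77.2 CPM in WD-Exos, 8.67, 26.0 and 59.4 in ND-Exos, 6.86, 33.6 and 51.3 in BCAS, and 14.8, 29.6 and 98.9 in Sham. The WD-Exos libraries were the most even, and their lowest was above the median of every other group. Its log2 fold change was 0.96 for WD-Exos against ND-Exos (SE 0.52, interval -0.11 to 2.04, unadjusted p = 0.0779) and 0.85 for WD-Exos against BCAS (SE 0.52, interval -0.22 to 1.92, unadjusted p = 0.116), both with an edgeR adjusted p of 1. Without the 5 libraries richest in immediate early genes these were 0.72 and 0.34. The 5 include WD-Exos replicates 1, 2 and 3, the highest of their group at 77.2, 56.8 and 69.5 CPM. Values nearer 0 had to follow, so that setting cannot tell whether immediate early genes bear on Atg4b. For BCAS against Sham the log2 fold change was -0.60 (interval -1.67 to 0.47), where Sham replicates 1 and 6 both stood at 98.9 CPM. Atg3 ranged from 3.74 to 113 CPM, Atg7 from 0 to 54.8, Atg10 from 0.0385 to 49.3 and Atg16l1 from 0 to 71.9, with overlapping groups in every pairwise comparison.

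ATG8 proteins coat the autophagosome, and Gabarap, Map1lc3b and Gabarapl2 had the highest mean levels per kilobase of all members. Map1lc3b, which encodes LC3B, the usual marker of autophagosomes, had 353, 503 and 650 CPM in WD-Exos, 544, 633 and 781 in ND-Exos, 400, 565 and 732 in BCAS, and 324, 584 and 627 in Sham. Of the 6 WD-Exos libraries, 5 lay below the lowest ND-Exos library, and replicate 6 lay within the ND-Exos range. WD-Exos against ND-Exos gave a log2 fold change of -0.41 (SE 0.18, 95% interval -0.77 to -0.04, unadjusted p = 0.0296, edgeR adjusted p = 0.798). It was -0.19 without the 5 libraries richest in immediate early genes. These include WD-Exos replicates 1, 2 and 3, the lowest of their group at 476, 353 and 426 CPM. A value nearer 0 had to follow, so that setting cannot tell whether immediate early genes bear on Map1lc3b. For BCAS against Sham the log2 fold change was 0.05 (SE 0.18, interval -0.31 to 0.41), for ND-Exos against BCAS 0.23 (-0.13 to 0.59) and for WD-Exos against BCAS -0.18 (-0.54 to 0.19).

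Gabarap (Entrez 56486), the founding gene of the other branch, had 312, 373 and 494 CPM in WD-Exos, 303, 373 and 415 in ND-Exos, 308, 415 and 642 in BCAS, and 408, 481 and 513 in Sham. The Sham libraries lay at the upper end and the exosome groups at the lower. Log2 fold changes were -0.25 for ND-Exos against BCAS (SE 0.15, interval -0.55 to 0.05), -0.19 for WD-Exos against BCAS (-0.49 to 0.11) and -0.11 for BCAS against Sham (-0.41 to 0.19). The WD-Exos value was 0.02 without the 5 libraries richest in immediate early genes. These include BCAS replicates 1 and 2, the highest of their group at 439 and 642 CPM. A higher value had to follow, so that setting cannot tell whether immediate early genes bear on Gabarap. With 1 library left out in turn, the WD-Exos value ran from -0.26 to -0.04. Gabarapl2 had 150, 198 and 218 CPM in WD-Exos, 211, 226 and 281 in ND-Exos, 197, 225 and 331 in BCAS, and 184, 244 and 316 in Sham. Its WD-Exos libraries were low relative to BCAS, with a log2 fold change of -0.34 (SE 0.16, interval -0.68 to -0.01, unadjusted p = 0.0449, edgeR adjusted p = 1).

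Map1lc3a, which encodes LC3A, had 47.4, 79.5 and 125 CPM in WD-Exos, 34.5, 63.3 and 84.5 in ND-Exos, 43.5, 92.4 and 174 in BCAS, and 42.1, 110 and 181 in Sham. ND-Exos had the lowest median and the narrowest range. Against BCAS the ND-Exos log2 fold change was -0.76 (SE 0.36, interval -1.49 to -0.03, unadjusted p = 0.043, edgeR adjusted p = 1). It was -0.46 without the 5 libraries richest in immediate early genes, which include the BCAS library at 174 CPM. A value nearer 0 had to follow, so that setting cannot tell whether immediate early genes bear on Map1lc3a. Gabarapl1 ranged from 0.074 to 86.2 CPM and its groups overlapped.

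**Figure D2:**
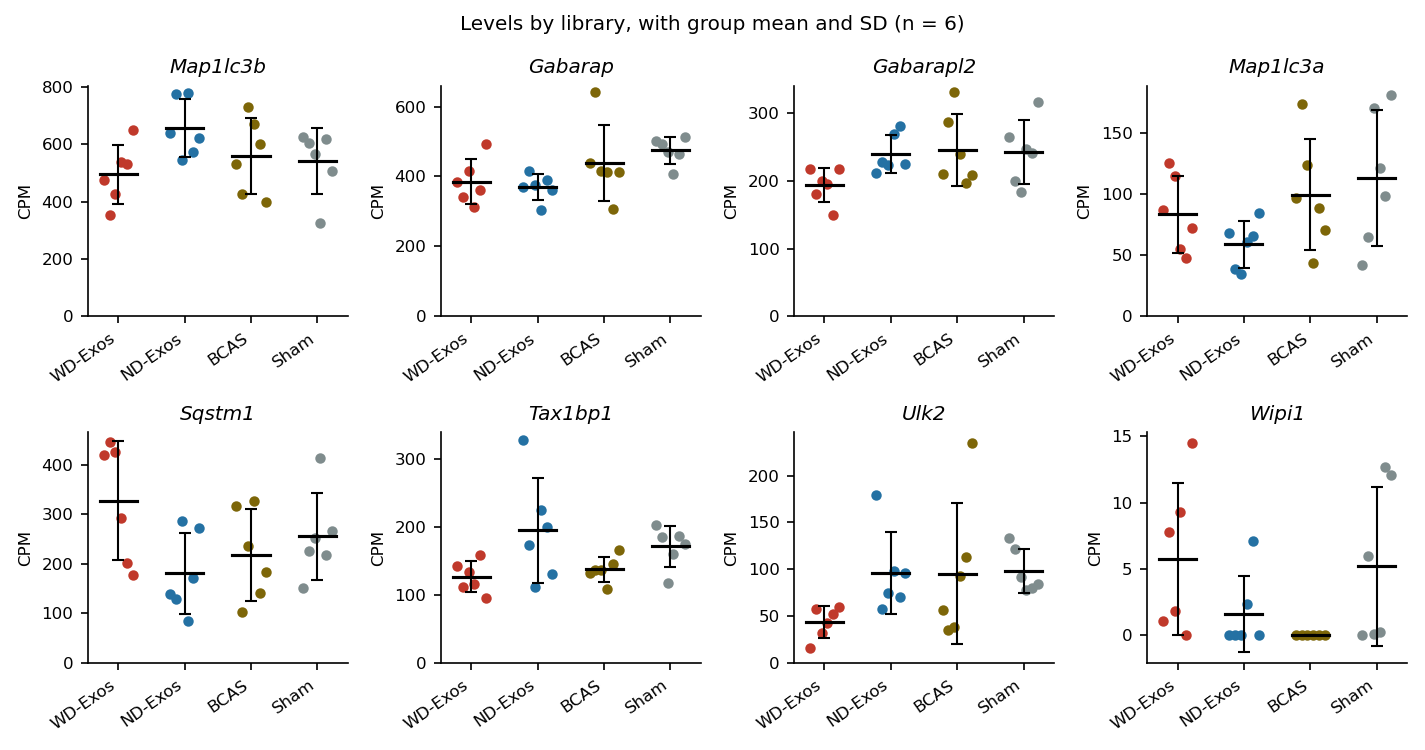
CPM of 8 members in each library (points), with the group mean (line) and SD (bars, n = 6), for WD-Exos, ND-Exos, BCAS and Sham from left to right. The WD-Exos libraries of Ulk2 all lie at 59.9 CPM or below, Sqstm1 has 3 WD-Exos libraries at 421 CPM or above, and Wipi1 is at 0 in all BCAS libraries.

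Cargo receptors bind ubiquitinated cargo and ATG8 proteins. Sqstm1 (Entrez 18412), which encodes p62, is itself degraded by autophagy as a protein and is a transcriptional target of the oxidative stress factor NRF2. It had 178, 357 and 446 CPM in WD-Exos, 85.0, 155 and 287 in ND-Exos, 102, 211 and 328 in BCAS, and 152, 240 and 415 in Sham. WD-Exos replicates 1, 2 and 3 were the 3 highest of all 24 libraries at 421, 446 and 426 CPM, while WD-Exos replicates 5 and 6, at 201 and 178, lay within the ND-Exos range. The log2 fold change for WD-Exos against ND-Exos was 0.86 (SE 0.32, 95% interval 0.20 to 1.51, unadjusted p = 0.012, edgeR adjusted p = 0.599). For WD-Exos against BCAS it was 0.58 (SE 0.32, interval -0.07 to 1.23, unadjusted p = 0.0765, edgeR adjusted p = 1).

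Those 3 high Sqstm1 libraries were also 3 of the 5 richest in immediate early and heat shock genes, whose summed level was 1614, 9247 and 22715 CPM in WD-Exos, 3183, 3655 and 5648 in ND-Exos, 637, 3260 and 18448 in BCAS, and 713, 1952 and 2910 in Sham. All 15 genes of that list had values. Without the 5 richest libraries the Sqstm1 log2 fold change was 0.32 for WD-Exos against ND-Exos and 0.02 for WD-Exos against BCAS. That setting removes the 3 highest Sqstm1 libraries and leaves 3 in WD-Exos. A smaller value had to follow, so it cannot tell whether immediate early genes bear on Sqstm1. BCAS replicate 2 had the second highest immediate early level and the second lowest Sqstm1 level, 102 CPM. BCAS replicate 1, also among the 5 richest, had Sqstm1 at 318 CPM. For BCAS against Sham the log2 fold change was -0.22 (interval -0.87 to 0.42), and for ND-Exos against BCAS -0.27 (interval -0.92 to 0.37).

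**Figure D3:**
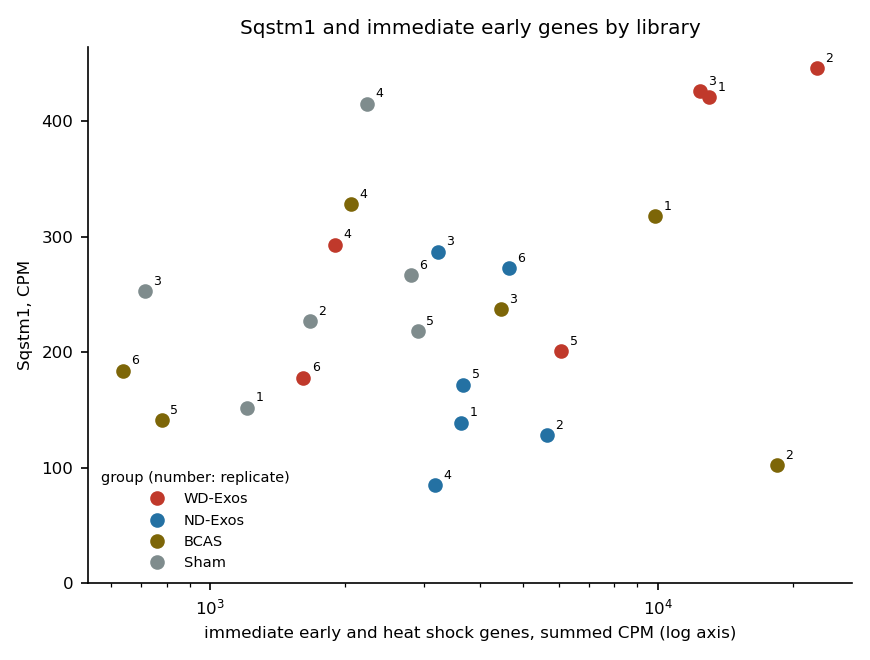
Sqstm1 level (CPM, vertical axis) against the summed level of 15 immediate early and heat shock genes (CPM, log horizontal axis) in the 24 libraries, coloured by group and numbered by replicate. WD-Exos replicates 1, 2 and 3 are high on both axes. BCAS replicates 1 and 2 are high on the horizontal axis at 318 and 102 CPM of Sqstm1, and Sham replicate 4 reaches 415 CPM at a low horizontal value.

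Tax1bp1, a receptor that also restrains inflammatory signalling, had 95.5, 125 and 158 CPM in WD-Exos, 111, 186 and 327 in ND-Exos, 109, 137 and 166 in BCAS, and 118, 180 and 202 in Sham. WD-Exos and BCAS libraries were low and close together, and 4 of the 6 ND-Exos libraries lay above the highest of both. The log2 fold change was -0.62 for WD-Exos against ND-Exos (SE 0.22, interval -1.06 to -0.18, unadjusted p = 0.00778, edgeR adjusted p = 0.546). For ND-Exos against BCAS it was 0.50 (SE 0.22, interval 0.06 to 0.94, unadjusted p = 0.0287, edgeR adjusted p = 0.903), and 0.29 without ND-Exos replicate 1, the library at 327 CPM. The BCAS against Sham value was -0.31 (SE 0.22, interval -0.76 to 0.13).

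Calcoco1, a receptor for the endoplasmic reticulum and Golgi, had 11.3, 22.1 and 47.0 CPM in WD-Exos, 6.31, 7.43 and 24.8 in ND-Exos, 16.5, 27.3 and 35.9 in BCAS, and 15.1, 25.5 and 52.8 in Sham. In ND-Exos 4 libraries were below 8 CPM and the other two near 25. Its log2 fold change for ND-Exos against BCAS was -1.04 (SE 0.59, interval -2.25 to 0.18, unadjusted p = 0.0913, edgeR adjusted p = 1). Nbr1, a relative of p62, ranged from 24.4 to 154 CPM with overlapping groups. Optn, which encodes the mitophagy receptor optineurin, was at 0 in 15 of 24 libraries; it had a count in 1 of 6 WD-Exos, 4 of 6 ND-Exos, 2 of 6 BCAS and 2 of 6 Sham libraries, and reached 21.6 CPM.

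The transcription factors TFEB and TFE3 switch on lysosomal and autophagy genes. Tfe3 had 99.7, 127 and 249 CPM in WD-Exos, 82.1, 128 and 189 in ND-Exos, 25.6, 75.8 and 251 in BCAS, and 16.4, 62.6 and 144 in Sham. Both exosome groups had higher medians than BCAS and Sham, and all ranges overlapped. Log2 fold changes were 0.42 for WD-Exos against BCAS (95% interval -0.50 to 1.34), 0.26 for ND-Exos against BCAS (-0.65 to 1.18) and 0.50 for BCAS against Sham (SE 0.45, interval -0.42 to 1.42, edgeR adjusted p = 1). The last was 0.04 without BCAS replicate 4, at 251 CPM. Tfeb had 0, 14.6 and 32.2 CPM in WD-Exos, 0, 1.32 and 10.2 in ND-Exos, 0, 0.366 and 32.6 in BCAS, and 4.86, 12 and 25.1 in Sham. A count was present in 6 of 6 Sham libraries but in 3 of 6 BCAS libraries, and BCAS replicate 6 alone held the BCAS group's high value. The interval for BCAS against Sham, -4.73 to 2.44 on the log2 scale, is too wide for a direction.

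TFEB and TFE3 bind elements built around CACGTG, which reads the same on both strands. Promoter windows of RefSeq on GRCm38.p6, 250 bases before to 50 after the start, were available for 30 members, and 4 of these held the motif, against 8.09% of all 27025 genes with a window (2187). The 4 belong to the conjugation and PI3 kinase roles. They are printed here because the factors are members of the set, with the motif in capitals, 12 bases around it but at most 5 transcribed bases, which leaves none after the motif of Atg14, and each on its gene's strand. The distances give the motif's first base relative to the first transcribed base, counted as 0.
Atg3 (chr16:45158723-45158775, plus strand, at -94 and -71): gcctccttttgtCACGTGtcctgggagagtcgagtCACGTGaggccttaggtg
Atg5 (chr10:44268313-44268342, plus strand, at -14): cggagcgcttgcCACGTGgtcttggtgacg
Atg7 (chr6:114670952-114670981, plus strand, at -132): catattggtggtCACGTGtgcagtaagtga
Atg14 (chr14:47568430-47568447, minus strand, at -1): aaaacaaaatccCACGTG
A match describes these letters and does not show that a factor binds there. Of the 4 genes, Atg3 had 28.9, 73.0 and 99.8 CPM in WD-Exos, 5.27, 35.6 and 90.1 in ND-Exos, 3.74, 54.7 and 113 in BCAS, and 45.9, 56.4 and 88.9 in Sham. Atg7 had 1.52, 22.9 and 53.8 CPM in WD-Exos, 23.4, 30.2 and 54.8 in ND-Exos, 0, 18.1 and 51.5 in BCAS, and 0.143, 15.5 and 52.2 in Sham. Atg14 had 9.69, 24.2 and 46.5 CPM in WD-Exos, 3.43, 22.5 and 35.2 in ND-Exos, 0, 16.9 and 48.2 in BCAS, and 3.21, 13.8 and 52.7 in Sham. The order of the group medians differed between these genes, and their groups overlapped.

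Pink1 encodes the kinase that marks damaged mitochondria for mitophagy. It had 12.5, 26.4 and 65.2 CPM in WD-Exos, 1.52, 22.8 and 66.0 in ND-Exos, 2.61, 38.0 and 115 in BCAS, and 32.3, 52.8 and 95.7 in Sham. Sham had the highest median and no library below 32.3 CPM, while the other groups held libraries down to 1.52 CPM. Log2 fold changes were -0.37 for BCAS against Sham (SE 0.66, 95% interval -1.73 to 1), -0.50 for ND-Exos against BCAS (-1.87 to 0.86) and -0.53 for WD-Exos against BCAS (-1.90 to 0.84), each with an edgeR adjusted p of 1.

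**Figure D4:**
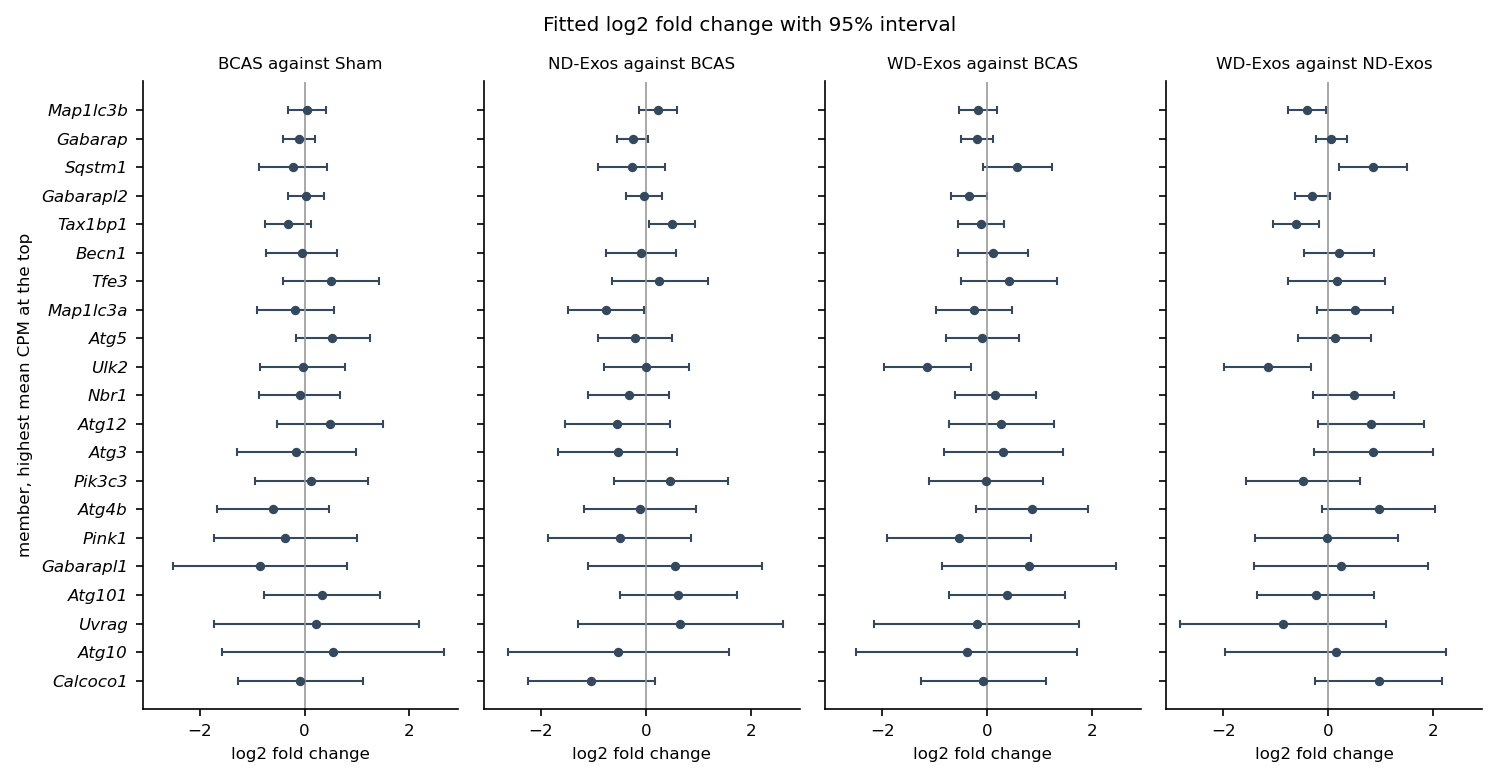
Fitted log2 fold change (points) with its 95% interval (bars) for the 21 members with a count in all 24 libraries, ordered by mean CPM, in each of the 4 pairwise comparisons. Intervals widen down the page as the level drops, and those of Ulk2, Sqstm1, Tax1bp1 and Map1lc3b lie to one side of 0 for WD-Exos against ND-Exos before adjustment for multiple tests.

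Members also differed in how much they varied between libraries. Among the 1316 genes with a mean of 100 to 1000 CPM, whose median coefficient of variation over the 24 libraries was 30.3%, lay 7 members. Gabarap varied by 18.5%, more than only 4.71% of those genes, Gabarapl2 by 18.9% (more than 5.24%) and Map1lc3b by 21.6% (more than 12.5%). Tax1bp1 lay mid-range at 31.4% (more than 54.3%). Becn1 at 40.0% (79.8%), Sqstm1 at 43.1% (85.9%) and Tfe3 at 54.3% (94.9%) were among the more variable. These are descriptions over all 24 libraries, in which groups and libraries are pooled, and over all genes tested the coefficient tends to be larger at a lower mean.

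**Figure D5:**
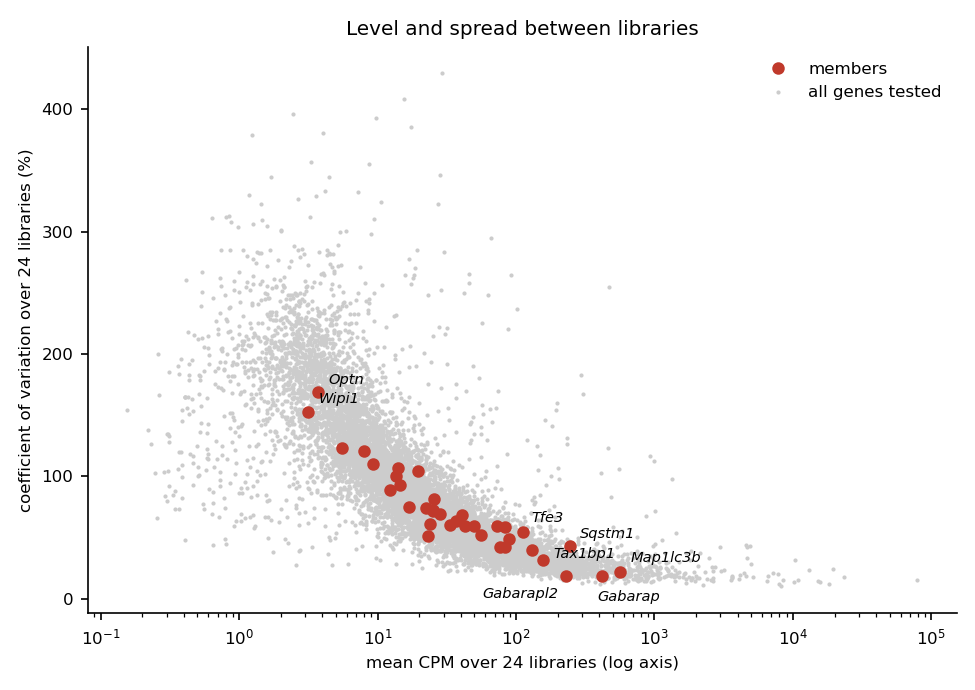
Coefficient of variation over the 24 libraries (percent, vertical axis) against mean CPM (log horizontal axis) for the 36 members and all genes tested. Gabarap, Gabarapl2 and Map1lc3b, at 18.5% to 21.6%, lie near the lower edge of the cloud, Tfe3 at 54.3% lies near the upper edge for its level, and Optn and Wipi1 have the largest values at the lowest levels.

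Of 59 other genes of the pathway, 58 had values and 56 were tested: further core autophagy genes, other mitophagy and selective receptors, genes of fusion with lysosomes, and upstream regulators. None passed by edgeR in any of the 4 pairwise comparisons. Of the 56, 3, 3, 5 and 4 were under an unadjusted p of 0.05, in the order of comparisons given above. Of all genes, 6.04%, 4.47%, 3.71% and 5.33% were under it. The gene with the lowest unadjusted p that was lower in BCAS than in Sham was Tbk1, whose kinase phosphorylates cargo receptors such as optineurin. Tbk1 had 37.1, 59.7 and 95.1 CPM in WD-Exos, 31.0, 67.7 and 115 in ND-Exos, 18.5, 24.7 and 52.5 in BCAS, and 35.9, 65.4 and 82.4 in Sham. BCAS libraries were low relative to all 3 other groups, with overlap at the top of the BCAS range. The log2 fold change was -1.03 for BCAS against Sham (SE 0.34, interval -1.72 to -0.33, edgeR adjusted p = 0.38), 1.21 for ND-Exos against BCAS (SE 0.34, interval 0.51 to 1.91, edgeR adjusted p = 0.577) and 1.03 for WD-Exos against BCAS (SE 0.34, interval 0.34 to 1.73, edgeR adjusted p = 0.816). These share the BCAS libraries. DESeq2 gave adjusted p = 0.0311, 0.00407 and 0.0278 in the same order, and over all alternatives the adjusted p ranged from these values up to 0.767, 0.999 and 1.

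Rptor, a subunit of the growth kinase complex mTORC1, had 21.9, 89.5 and 98.0 CPM in WD-Exos and 9.83, 21.3 and 55.1 in ND-Exos. The groups overlapped, with a log2 fold change of 1.46 for WD-Exos against ND-Exos (SE 0.48, interval 0.47 to 2.46, edgeR adjusted p = 0.524). DESeq2 gave an adjusted p of 0.0465, and over all alternatives it ranged from there up to 0.809. Sec62, a receptor for the endoplasmic reticulum, had 68.0, 80.6 and 146 CPM in WD-Exos, 140, 166 and 186 in ND-Exos, and 56.5, 94.5 and 123 in BCAS. ND-Exos lay above BCAS without overlap, the one such pathway gene, where 0.0979% of all genes were apart in that direction. Its log2 fold change was -0.82 for WD-Exos against ND-Exos (SE 0.24, interval -1.32 to -0.31, edgeR adjusted p = 0.44) and 0.84 for ND-Exos against BCAS (SE 0.24, interval 0.34 to 1.34, edgeR adjusted p = 0.577). For WD-Exos against ND-Exos DESeq2 gave an adjusted p of 0.0247, and over all alternatives it ranged from there up to 0.816. Vps18, a subunit of the tethering complex at lysosomes, had 0.0396, 11 and 25.9 CPM in ND-Exos and 0, 46.5 and 98.6 in BCAS, with overlap and an interval of -4.54 to 0.22. Vamp8, which encodes a fusion protein of lysosomes, had 204, 248 and 311 CPM in WD-Exos, 267, 321 and 363 in BCAS, and 226, 271 and 295 in Sham. Its log2 fold change was -0.35 for WD-Exos against BCAS (interval -0.65 to -0.05, edgeR adjusted p = 1) and 0.26 for BCAS against Sham (interval -0.04 to 0.56, edgeR adjusted p = 1).

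For 12 members the exons overlap those of another gene in the GENCODE vM21 models, for example Sqstm1 with Mrnip, Map1lc3b with Zcchc14, Tax1bp1 with Gm43966, Becn1 with Cntd1 and Pink1 with Mir7019. Mir7019 lies on the strand of Pink1, where a strand setting would not separate reads. The other partners named lie on the opposite strand. The sources used here do not say whether counting used strand. If it did not, reads from those partners cannot be told apart from the members' own.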

How the data were processed

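RNA in sorted microglia was measured by Smart-seq2 in 24 libraries. The deposited values are unscaled estimated counts for Entrez genes; 76.8% of genes were whole in every library, as were 34 of 36 members. For the aligner, counting tool, build and strand setting: not given in the sources used here. Of 22064 identifiers, 6186 were blank and left out; the RefSeq table of GRCm38.p6 named 22002, and 1 entry in an unnamed column was not used. Estimated counts were rounded, filtered with filterByExpr (minimum 10 counts), scaled by TMM (factors 0.936 to 1.17) and tested in 1 fit of 4 group means by edgeR 4.0.16 (robust quasi-likelihood F test) in R 4.3.3, with Benjamini-Hochberg adjustment over 10219 genes and a threshold of 0.05; the procedure was tested on simulated data. CPM are on the TMM scale. DESeq2 1.42.0 and voom of limma 3.58.1 with library weights were alternatives, beside other scaling and filters, a replicate block, only the groups compared, and 24 fits leaving out 1 library each. Figures were drawn with matplotlib 3.10.9.

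The members and lists were chosen with earlier results of these data known. Library values are given for the 2 members of each role with the highest mean, the 3 higher and 3 lower members with the smallest p in each pairwise comparison, and members whose groups did not overlap; of other pathway genes, the 1 higher and 1 lower with the smallest p. Rb1cc1, and Atg3, Atg7 and Atg14 in the promoter paragraph, fall outside the rule and were named after their values were seen, as was Sec62 for ND-Exos against BCAS.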

Additional observations from a re-analysis of the deposited data

Results flagged for a closer look

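In 140 groups of 6 values, 26 held a library whose gap to the rest was large for the group's range (Dixon's criterion). Chance meets it in about 1 in 20 groups where values are normally distributed. Whether these values are was not tested, so the 26 cannot be set against that rate. Each library flagged was the highest of its group unless said otherwise. Ulk2 stood at 179 CPM in ND-Exos replicate 1, where the others held 57.4 to 98.2. Atg101 was at 62.5 CPM in WD-Exos replicate 6 and 60.4 CPM in Sham replicate 4, and Atg12 at 181 CPM in WD-Exos replicate 6 and 125 CPM in ND-Exos replicate 4. Atg5 reached 131 CPM in ND-Exos replicate 4 and 183 CPM in BCAS replicate 5. Becn1 reached 229 CPM in Sham replicate 3, Pik3c3 114 CPM in WD-Exos replicate 5 and Tfe3 249 CPM in WD-Exos replicate 1. Tfeb was at 32.6 CPM in BCAS replicate 6, where the other 5 libraries held at most 3.30 CPM. Wipi1 was at 7.10 CPM in ND-Exos replicate 5 and Calcoco1 at 52.8 CPM in Sham replicate 5.

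Summed oligodendrocyte markers stood apart in 1 library of each group, at 5225 CPM in WD-Exos replicate 6, 4293 CPM in ND-Exos replicate 3, 1232 CPM in BCAS replicate 1 and 7594 CPM in Sham replicate 4. Astrocyte markers reached 385 CPM in WD-Exos replicate 4, neuronal markers 236 CPM in Sham replicate 1 and mural cell markers 981 CPM in Sham replicate 2. Endothelial markers were lowest in BCAS replicate 6, at 0 CPM. Neutrophil markers were at 0.522 CPM in Sham replicate 1, and the single T and NK cell marker with values at 0.148 CPM in WD-Exos replicate 5 and 0.0396 CPM in ND-Exos replicate 2. The members' mean log2(CPM + 1) was lowest in Sham replicate 2, at 4.44, and genes with a count were most numerous in ND-Exos replicate 3, at 10603.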

How the results depend on the processing

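The count of members past the threshold was 0 under every alternative run except DESeq2, which called 1 (Wipi1) in each of the 3 comparisons with BCAS libraries; the cause was not tested. In the test of any difference DESeq2 gave an adjusted p to 14 members. Leaving out 1 library in turn gave 0 to 0 members in each comparison. Replicate numbers do not pair the libraries: correlations of same-numbered libraries ran from -0.0611 to 0.0785, 3 of 24 libraries were closest to their own number, and the replicate block called 0 members. Of 666 alternative fold changes over 32 gene results, 665 kept their direction and 8 passed the threshold, all by DESeq2; Gabarap for WD-Exos against BCAS turned to 0.02 without the 5 libraries richest in immediate early genes. That setting and the one without the 3 libraries richest in oligodendrocyte markers were chosen after seeing the data. The stricter filter (mean of at least 10 CPM) does not test Wipi1. Over all genes, BCAS against Sham had 0 calls, 9 by voom, 593 by DESeq2, 27 without the 5 libraries and 32 without BCAS replicate 2; ND-Exos against BCAS had 2, with 1 by voom, 1 without those 3, 481 by DESeq2 and 1 to 3 with 1 library left out; WD-Exos against BCAS had 0, with 1 and 399; WD-Exos against ND-Exos had 2, with 4 and 454, 1 with only the groups compared, and up to 5 with 1 library left out. The test of any difference had 3, with 30 unfiltered, 10 under the stricter filter, 26 by voom, 152 by DESeq2, 59 without the 5 libraries and up to 42 with 1 library left out (BCAS replicate 2).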
